A study of Mus musculus with 8 samples.

Results

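Gse1, Sipa1l3, Ptk7, Cul7 and Klc4 are 5 mouse genes that were densely covered by 5-hydroxymethylcytosine (5hmC) peaks in embryonic stem cells (ESCs) and less so after knockdown of Suz12. They are 5 of the 22367 protein-coding genes of the GENCODE M1 annotation of mm9. They were chosen by the measured values themselves: each lies in 100 kb windows in which the number of base pairs (bp) under peaks was much lower in ESCs with a hairpin against Suz12 (shSuz12) than in ESCs with a hairpin against GFP (shGFP). The difference between shGFP and shSuz12 in these genes is therefore a description and not a finding. The other 4 libraries had no part in the choice, though the ESC library is of the same cell line as shGFP and its coverage is not independent of it.

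5hmC arises when the Tet dioxygenases oxidise 5-methylcytosine, and in mammalian genomes most of it sits at CpG dinucleotides. It can be an intermediate on the way to unmethylated cytosine, and it is also a stable mark, abundant in the brain and present in ESCs. Suz12 is a core subunit of Polycomb repressive complex 2 (PRC2), which trimethylates lysine 27 of histone H3. The study asked whether PRC2 is needed for the 5hmC pattern of ESCs.

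The data are 6 peak lists from GLIB-Seq, in which 5hmC is glucosylated, the sugar is oxidised and biotinylated, and the labelled fragments are pulled down and sequenced. The groups are E14 ESCs without a hairpin (ESC), embryonic fibroblasts (MEF) labelled C57BL/6 and embryonic day 11 although the methods give a later day, adult brain and adult liver of C57BL/6 mice aged 8 weeks, and E14 cells transfected with shGFP or with shSuz12. Each group is 1 library, both knockdown libraries come from transfected and selected cells of 1 line, and the labels do not say which of the hairpins against Suz12 was used. Brain and liver are whole tissues, and the labels give no strain for E14, so that cell type and strain cannot be told apart. Depth is unknown because the lists hold no read counts, and the level of Suz12 and the markers of each cell type cannot be checked in a peak list.

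The lists held between 130408 and 217025 peaks, and their lowest scores were 80 in ESC and liver, 30 in MEF and brain, 50.02 in shGFP and 30.34 in shSuz12, so they were not cut at one level. The score is the value that the peak caller MACS gives a peak, a multiple of the negative logarithm of its p-value. The shSuz12 list was the longer of the knockdown pair, with 138705 peaks against 132996 in shGFP, but a typical peak in it spanned 564 bp rather than 776 bp (medians), and 83.54 Mb were covered rather than 121.2 Mb. Over all protein-coding genes, shSuz12 covered 0.706 times the bp of shGFP. With 1 library per condition there is no spread between replicates and no test, and each value below belongs to 1 library.

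The 5 genes have unrelated products and lie at 3 places in the genome. Gse1 encodes a coiled-coil protein found with histone deacetylase and CoREST complexes, and spans 92525 bp on the plus strand of chromosome 8 (chr8:123012766-123105290). Sipa1l3, a relative of the Rap GTPase-activating protein Sipa1, spans 185083 bp on the minus strand of chromosome 7 (chr7:30105397-30290479). Ptk7, a receptor of planar cell polarity and Wnt signalling whose kinase domain is inactive, spans 65054 bp on the minus strand of chromosome 17 (chr17:46701400-46766453). Klc4, a kinesin light chain, follows 1120 bp further on (chr17:46767574-46782104, minus strand, 14531 bp). Cul7, the cullin scaffold of the 3M ubiquitin ligase, follows Klc4 after 5181 bp (chr17:46787286-46801313, plus strand, 14028 bp). These last 3 genes lie within 99914 bp and mostly in 1 window, so they are not independent examples. Gse1 also shares its span with the 4434882 bp gene Gm20388 and, at its end, with Gins2, and the chromosome 17 genes lie within the span of the lincRNA Gm16736. Peaks carry no strand, so a peak in shared sequence cannot be given to 1 gene.

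The windows give the values behind the choice. Of 26558 windows of 100 kb, the first Gse1 window had the second largest difference, from 75122 bp under peaks in shGFP to 49342 bp in shSuz12. The window with Ptk7, Klc4 and most of Cul7 came next, with 48320 bp in shGFP and 22814 bp in shSuz12, and the window with the 5′ part of Sipa1l3 was at rank 5, with 46190 bp and 22077 bp. The differences in these 3 windows were 25780, 25506 and 24113 bp, and those of the unselected windows at ranks 1, 4 and 6 were 25866, 24786 and 24044 bp, so nothing separates the chosen windows from their neighbours in the ranking. Of 16499 windows with any shGFP coverage, 79.7% had fewer bp in shSuz12, with a median difference of 1185 bp.

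The sequences below show what lay under peaks that were and were not met in shSuz12. Each is the 300 bp in the middle of a peak, on the plus strand of mm9, in lower case with every CpG in capitals, since CpG is where 5hmC is mostly found. The first 4 are from the shGFP peak with the highest score, in each gene, that no shSuz12 peak touched. The corresponding sequence of Cul7 overlaps a UTR and is not shown.
Gse1, not met (chr8:123041633-123041932): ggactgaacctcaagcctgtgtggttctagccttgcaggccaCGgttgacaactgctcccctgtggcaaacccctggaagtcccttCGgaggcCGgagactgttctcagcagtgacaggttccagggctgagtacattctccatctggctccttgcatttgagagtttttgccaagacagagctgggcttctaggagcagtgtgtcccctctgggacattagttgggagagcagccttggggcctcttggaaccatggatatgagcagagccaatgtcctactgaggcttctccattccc
Sipa1l3, not met (chr7:30117359-30117658): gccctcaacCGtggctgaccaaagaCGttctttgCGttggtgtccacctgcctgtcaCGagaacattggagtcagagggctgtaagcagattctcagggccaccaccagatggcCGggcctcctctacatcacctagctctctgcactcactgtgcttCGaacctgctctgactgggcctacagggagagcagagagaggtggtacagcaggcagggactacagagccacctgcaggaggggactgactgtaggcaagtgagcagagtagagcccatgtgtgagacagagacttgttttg
Ptk7, not met (chr17:46709836-46710135): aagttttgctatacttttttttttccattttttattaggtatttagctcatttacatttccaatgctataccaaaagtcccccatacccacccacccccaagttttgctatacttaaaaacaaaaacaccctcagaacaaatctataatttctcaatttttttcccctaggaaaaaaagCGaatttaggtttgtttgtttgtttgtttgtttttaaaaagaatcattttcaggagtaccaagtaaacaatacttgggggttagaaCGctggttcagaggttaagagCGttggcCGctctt
Klc4, not met (chr17:46778877-46779176): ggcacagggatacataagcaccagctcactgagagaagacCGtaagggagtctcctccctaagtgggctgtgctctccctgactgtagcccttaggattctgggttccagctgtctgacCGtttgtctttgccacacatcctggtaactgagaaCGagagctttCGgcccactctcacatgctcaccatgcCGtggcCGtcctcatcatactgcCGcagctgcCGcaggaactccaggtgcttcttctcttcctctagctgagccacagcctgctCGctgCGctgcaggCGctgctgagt

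The Gse1 stretch lies in an intron and holds 3 CpGs, and all 300 bp were also under peaks in ESC, brain and liver but not in MEF. The Sipa1l3 stretch holds 6 CpGs and 51 bp of coding exon, with the same pattern over the other libraries. The Ptk7 stretch is intronic and AT-rich, with a GC content of 34.3% and 4 CpGs. The Klc4 stretch, with 114 bp of coding exon and 11 CpGs, was also under a peak in ESC but in none of MEF, brain and liver.

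For comparison, the next 3 sequences are from the peak with the highest score in shSuz12 itself, a set added after the values had been seen.
Sipa1l3, highest shSuz12 score (chr7:30246858-30247157): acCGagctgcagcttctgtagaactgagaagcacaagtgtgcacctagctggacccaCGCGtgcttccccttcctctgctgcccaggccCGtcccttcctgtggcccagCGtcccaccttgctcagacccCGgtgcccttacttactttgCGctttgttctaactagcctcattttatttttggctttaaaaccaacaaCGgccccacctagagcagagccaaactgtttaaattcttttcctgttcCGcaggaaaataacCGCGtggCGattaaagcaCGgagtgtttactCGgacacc
Ptk7, highest shSuz12 score (chr17:46735156-46735455): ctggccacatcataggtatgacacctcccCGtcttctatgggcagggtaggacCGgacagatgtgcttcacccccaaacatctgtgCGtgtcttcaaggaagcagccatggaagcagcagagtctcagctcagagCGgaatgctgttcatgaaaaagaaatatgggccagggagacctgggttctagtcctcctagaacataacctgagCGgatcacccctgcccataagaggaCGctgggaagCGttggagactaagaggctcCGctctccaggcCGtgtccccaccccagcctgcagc
Cul7, highest shSuz12 score (chr17:46795935-46796234): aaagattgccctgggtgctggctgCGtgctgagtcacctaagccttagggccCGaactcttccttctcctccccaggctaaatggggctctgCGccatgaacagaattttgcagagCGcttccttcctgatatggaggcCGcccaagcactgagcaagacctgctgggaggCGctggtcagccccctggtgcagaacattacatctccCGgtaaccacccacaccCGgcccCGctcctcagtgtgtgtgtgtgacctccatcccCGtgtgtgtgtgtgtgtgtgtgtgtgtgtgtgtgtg

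These held 14 CpGs in Sipa1l3, 9 in Ptk7 and 10 in Cul7, more than the unmet stretch of the same gene, which had 7 in Cul7. Gse1 had 10 CpGs in the corresponding stretch, which is partly UTR and not shown. Klc4 went the other way, with 6 CpGs under its highest shSuz12 peak against 11 in its unmet one. The counts rest on a single short stretch of each kind per gene, and the kinds were picked by different rules. They are thus no comparison of met with unmet peaks.

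Gse1 was among the most densely covered genes in every library. Peaks covered 77.7% of its span in ESC, 62.8% in MEF, 63.4% in brain, 77.2% in liver, 76.9% in shGFP and 50.4% in shSuz12. The shSuz12 value was the lowest of the 6, yet it was above that of 99.93% of the 13506 protein-coding genes of at least 10 kb in the same list. In shGFP the gene was above 99.96% of them, in ESC above 99.5%, in MEF above 99.62%, and in brain and liver above 98.87%.

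Sipa1l3 is long, and its peaks were spread over the span. They covered 54.7% of it in ESC, 35.6% in MEF, 52.6% in brain, 36.4% in liver, 39.9% in shGFP and 19.7% in shSuz12. ESC and brain were the highest, MEF, liver and shGFP were close together, and shSuz12 stood below all of them.

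Ptk7 had its highest coverage in the ESC line and its lowest in liver. Peaks covered 62.1% of the span in ESC, 45.4% in MEF, 31.2% in brain, 10.3% in liver, 53.3% in shGFP and 25.1% in shSuz12. The shSuz12 value thus lay between those of brain and liver, and the liver list, with 6 peaks in the gene, was at the 52.17% point of all genes of at least 10 kb, near the middle.

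Cul7 is compact, with 54.2% of its span in exons. Peaks covered 79.4% of it in ESC, 16.4% in MEF, 42.6% in brain, 33.2% in liver, 49.4% in shGFP and 28.1% in shSuz12. MEF was the lowest, with a single peak of 2303 bp that began 618 bp after the annotated start.

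Klc4 had the largest ratio between its highest and lowest cell type, though in percentage points Cul7 had a slightly larger range. Peaks covered 66.8% of it in ESC, 5.68% in MEF, 16.2% in brain, 27.8% in liver, 42.0% in shGFP and 17.6% in shSuz12. The shSuz12 value was close to that of brain, and MEF had 1 peak of 826 bp near the end of the gene.

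**Figure D1:**
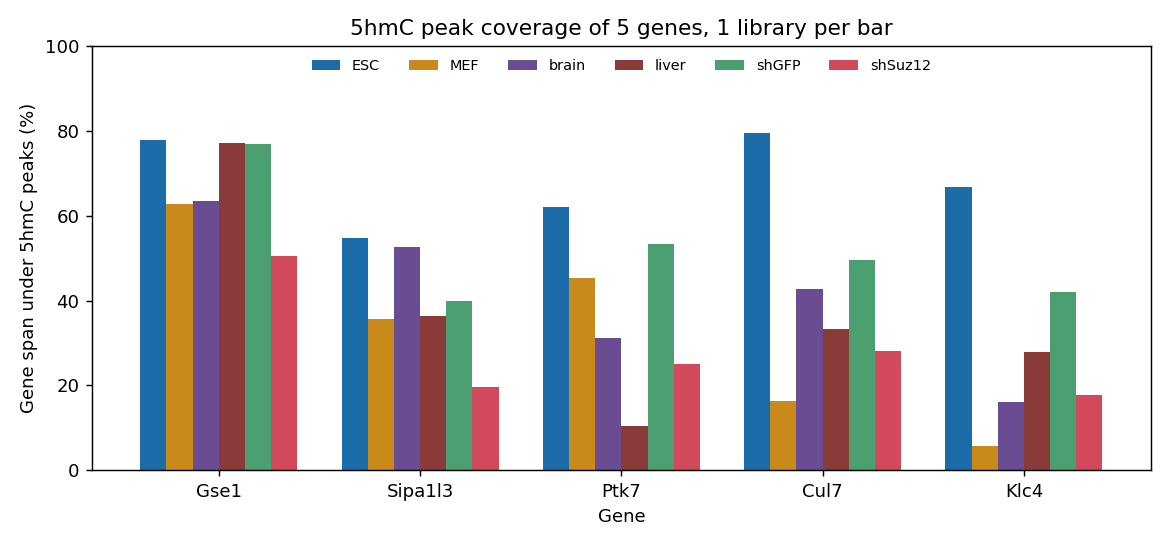
Percent of each gene's annotated span under 5hmC peaks (vertical axis) for the 5 genes, with 1 bar for each of the 6 libraries and no replicates. ESC is above shGFP and shGFP above shSuz12 in all 5 genes, as over all protein-coding genes together. The order of MEF, brain and liver changes from gene to gene.

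The shGFP library had less coverage than the ESC library in each gene. The order was the same over all protein-coding genes, with 11.73% of their bp covered in ESC, 7.504% in shGFP and 5.294% in shSuz12. It is thus not particular to these genes. In shGFP the covered bp were 0.989 times those of ESC in Gse1, 0.858 times in Ptk7, 0.729 times in Sipa1l3, 0.628 times in Klc4 and 0.623 times in Cul7. The ESC list begins at a score of 80 and the shGFP list at 50.02, and the part of this difference in the coverage was not tested. In all 5 genes shSuz12 was further below, between 0.264 times ESC in Klc4 and 0.648 times in Gse1.

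Between shGFP and shSuz12 the covered bp went from 71149 to 46619 in Gse1, from 73763 to 36457 in Sipa1l3, from 34691 to 16304 in Ptk7, from 6935 to 3945 in Cul7 and from 6099 to 2565 in Klc4. The ratios of shSuz12 to shGFP were 0.655, 0.494, 0.470, 0.569 and 0.421 in the same order. Sipa1l3, Ptk7 and Klc4 had at most 50% of their shGFP coverage left, as did 30.8% of the 14173 genes covered in shGFP and 39.9% of the 1708 genes with at least 40% of their span covered there. Since the genes were chosen on this contrast, nothing is read from that count.

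Much of the difference was shared by the whole list. Divided by the ratio over all protein-coding genes, the ratios became 0.929 for Gse1, 0.806 for Cul7, 0.701 for Sipa1l3, 0.666 for Ptk7 and 0.596 for Klc4. Their 95% counting intervals, which can be too narrow, included 1 in Gse1 (0.79 to 1.06), Cul7 (0.379 to 1.4) and Klc4 (0.197 to 1.21). Those of Sipa1l3 (0.562 to 0.859) and Ptk7 (0.483 to 0.897) did not, but the genes were chosen on this contrast. At 0.929, Gse1 was close to the value of all genes, and 48.9% of the covered genes had a lower ratio than it. Of the 1708 densely covered genes, 94.9% had fewer bp in shSuz12, with a median ratio of 0.559, which Gse1 and Cul7 exceeded and Sipa1l3, Ptk7 and Klc4 did not reach. The position of Gse1 changed with the minimum score. With scores of at least 80 in every list its ratio relative to all genes was 1.75, so it kept more of its coverage than genes did on the whole.

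**Figure D2:**
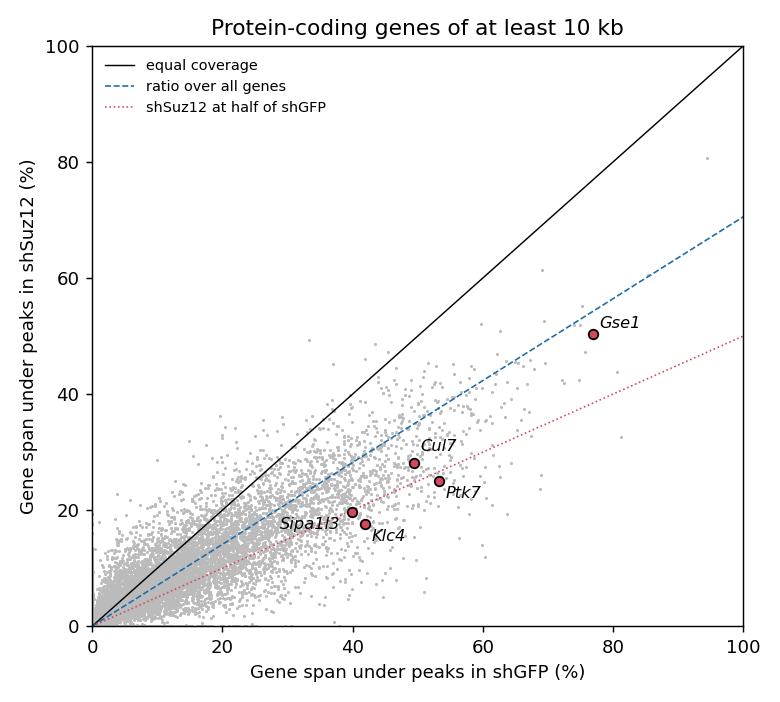
Percent of the gene span under peaks in shGFP (horizontal) and shSuz12 (vertical) for protein-coding genes of at least 10 kb (grey points), with the 5 genes in red and lines for equal coverage, for the ratio over all genes (0.706) and for 50% of shGFP. Gse1 lies near the line for all genes at the far right of the cloud, and Sipa1l3, Ptk7 and Klc4 lie just under the 50% line.

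Chromosome 8 was itself densely covered in the ESC line. Relative to the genome, its covered share was 2.04 in ESC, 1.96 in shGFP and 2.01 in shSuz12, against 1.18 in MEF, 1.20 in brain and 1.19 in liver. The ratio of shSuz12 to shGFP was 0.706 over the chromosome and 0.655 in Gse1. Whether the level of the chromosome has a part in the coverage of Gse1 in ESCs was not tested. Chromosome 17 stood between 1.19 and 1.37 and chromosome 7 between 0.866 and 0.964 in the 6 libraries.

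The genes had less coverage in shSuz12 but, except for Sipa1l3, no fewer peaks. Ptk7 had 26 peaks in shGFP and 26 in shSuz12, Cul7 had 5 and 5, Klc4 had 5 and 5, and Sipa1l3 had 60 and 55. Gse1 had 27 in shGFP and 55 in shSuz12. Together the genes held 123 shGFP peaks over 192637 bp and 146 shSuz12 peaks over 105890 bp, and over all genes the number of peaks in shSuz12 was 1.06 times that in shGFP.

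The peaks were narrower in each gene. Their median width was 1763 bp in shGFP and 652 bp in shSuz12 in Gse1, and 1420 bp and 423 bp in Klc4. In Sipa1l3 it was 1010.5 bp and 577 bp, in Ptk7 1105.5 bp and 579 bp, and in Cul7 1287 bp and 689 bp. The shSuz12 widths were thus near the 564 bp of that whole list, whereas the shGFP widths were above the 776 bp of theirs.

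The scores were lower as well. The median score in Gse1 was 341.46 in shGFP and 85.49 in shSuz12, and in Klc4 173.57 and 45.18. Sipa1l3 had 125.49 and 56.55, Ptk7 129.41 and 64.95, and Cul7 156.25 and 62.38. A score grows with depth, which is unknown, and peaks with a score of at least 80 were fewer in the whole shSuz12 list as well, 23594 against 74496 in shGFP. Of the peaks in the 5 genes, 96 had such a score in shGFP and 49 in shSuz12.

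The peak with the highest score was at a different place in shGFP and in shSuz12. In Gse1 the highest score was 3100 in shGFP, at which many top scores in the lists stand, and 2 peaks tied at it, one of 14134 bp (chr8:123069183-123083316) and one of 11798 bp (chr8:123088832-123100629). It was 641.72 in shSuz12, in a peak of 2572 bp at the end of the gene (chr8:123101262-123103833). In Ptk7 the top shGFP peak had a score of 592.48 over 5166 bp (chr17:46727505-46732670), and the top shSuz12 peak had 180.15 over 1243 bp (chr17:46734685-46735927). In Cul7 the top shGFP peak had 572.4 over 2341 bp near the start of the gene (chr17:46788244-46790584), and the top shSuz12 peak had 128.06 over 1427 bp in the second part of it (chr17:46795372-46796798). In Sipa1l3 the top shGFP peak had 531.42 over 2835 bp (chr7:30126226-30129060), and the top shSuz12 peak had 134.38 over 601 bp (chr7:30246708-30247308). In Klc4 the top shGFP peak had 315.97 over 1420 bp (chr17:46775823-46777242), and the top shSuz12 peak had 108.29 over 757 bp (chr17:46772546-46773302). In each of the 5 genes the highest shSuz12 peak lay outside the highest shGFP peaks. How often this is so over all genes is not given here, so it is not read as a trait of these genes.

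Each shGFP peak was then followed into shSuz12, where it counted as met if a shSuz12 peak overlapped it by at least 1 bp. In Gse1, 3 of 27 peaks were unmet, or 11.1% (exact 95% interval 2.35 to 29.2, counting error only). In Sipa1l3, 24 of 60 were unmet, or 40% (27.6 to 53.5), and in Ptk7, 9 of 26, or 34.6% (17.2 to 55.7). Cul7 and Klc4 each had 1 unmet peak of 5, or 20%, with an interval of 0.505 to 71.6 that allows nearly any share. Over all protein-coding genes 47.1% of 81068 shGFP peaks were unmet, a value given for orientation, since the genes were chosen on this contrast. Wider peaks are met more easily, and the peaks of these genes were wider than those of the list. With scores of at least 80 in both lists the unmet shares were 33.3% in Gse1, 73.9% in Sipa1l3, 76.5% in Ptk7, 80% in Cul7 and 75% in Klc4, so that much of what met the shGFP peaks was of low score. This minimum left 23594 peaks in the whole shSuz12 list and 74496 in that of shGFP. The share over all genes at this minimum is not given here, and the 47.1% without it is no background for these values.

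Most of the bp that were bare in shSuz12 lay at the edges or in gaps of peaks that were still met. In Gse1, 22934 of the 25827 bp no longer covered, or 88.8%, were in met peaks. The share was 84.4% in Cul7, 81.9% in Klc4, 62.1% in Ptk7 and 49.5% in Sipa1l3, against 38.9% over all genes. The shGFP peaks of the 5 genes were wider than those of the list and less often unmet, and the genes were chosen on this contrast. The 38.9% is thus given for orientation, and the share over densely covered genes is not given here. In Sipa1l3 about as many of the bared bp were in peaks with no counterpart, and in Cul7 and Klc4 the values rest on 5 peaks each.

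**Figure D3:**
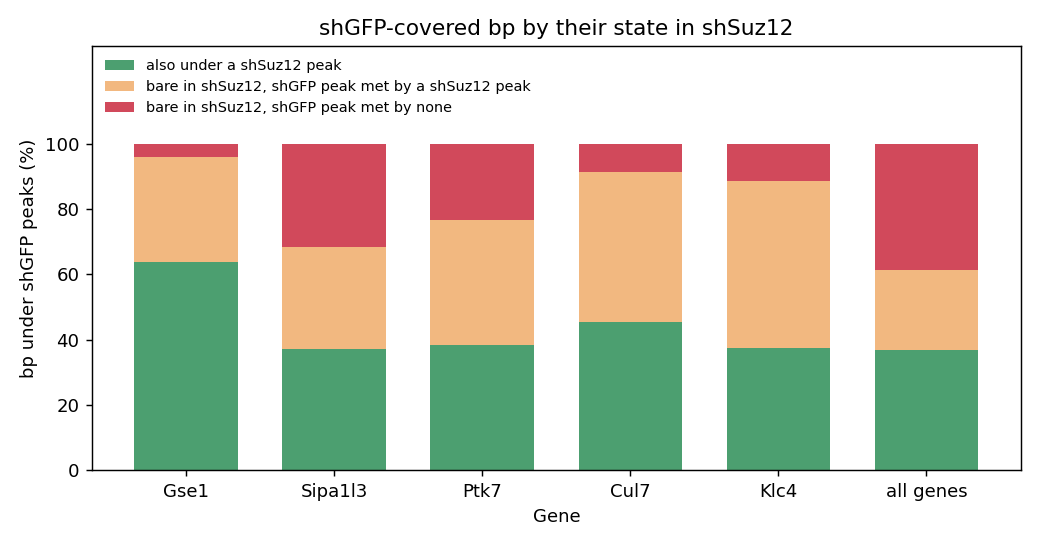
The bp under shGFP peaks in each gene, and in all protein-coding genes, split by their state in shSuz12 (vertical axis, percent): also under a shSuz12 peak, bare but within a shGFP peak that a shSuz12 peak met, or bare within a shGFP peak that none met. The last share is smallest in Gse1 and, among the 5 genes, largest in Sipa1l3.

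The unmet peaks had the lower median score in each gene, with overlap between the unmet and met peaks in every gene but Klc4. Their median score was 126.23 against 434.34 for the met peaks in Gse1, 82.385 against 174.1 in Sipa1l3, and 86.81 against 167.63 in Ptk7. In Cul7 the unmet peak had a score of 130.69 and in Klc4 of 77.46, below the medians of 183.26 and 202.57 of the met peaks. Some strong peaks were unmet all the same, the highest with a score of 349.92 in Sipa1l3 (chr7:30116269-30118748) and 286.79 in Ptk7 (chr17:46709184-46710787).

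Most of the shSuz12 coverage was at places already covered in shGFP. Of the bp under shSuz12 peaks, 97.2% lay within shGFP peaks in Gse1, 89.4% in Klc4, 81.7% in Ptk7, 79.6% in Cul7 and 75.4% in Sipa1l3. The share was 52.5% over all genes and 81.2% over the 1708 genes with at least 40% of their span covered in shGFP, since more shGFP coverage leaves less room outside it. Gse1 and Klc4 had no shSuz12 peak that met no shGFP peak, Ptk7 and Cul7 had 1 each, and Sipa1l3 had 12 of 55.

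Gse1 gave the clearest case of splitting. The downstream part of the gene was under 1 unbroken ESC peak of 38707 bp (chr8:123069060-123107766), the widest of the 171865 peaks of that list, where the next was 12856 bp, and it ran 2476 bp past the annotated end of Gse1 into Gins2. The same stretch held 6 peaks in shGFP over 95.9% of its length, 7 in liver over 97.4%, 11 in brain over 80.5%, 14 in MEF over 76.8% and 28 in shSuz12 over 72.2%. The shGFP peak of 14134 bp in it was the second widest of 132996, and 11 shSuz12 peaks met it, covering 9709 bp. The shGFP peak of 11798 bp that tied with it in score was met by 8 shSuz12 peaks over 9313 bp. At least 72.2% of this stretch was covered in every library, and the number of gaps that broke it differed. Of the 27 shGFP peaks of Gse1, 12 were met in 2 or more pieces, or 44.4%, against 7.28% over all genes, 19.2% in Ptk7 and 10% in Sipa1l3. A wide peak has more room for several pieces, and the median shGFP width was 1763 bp in Gse1 and 776 bp in the list. The genes were also chosen on this contrast, so the 7.28% is no like background.

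**Figure D4:**
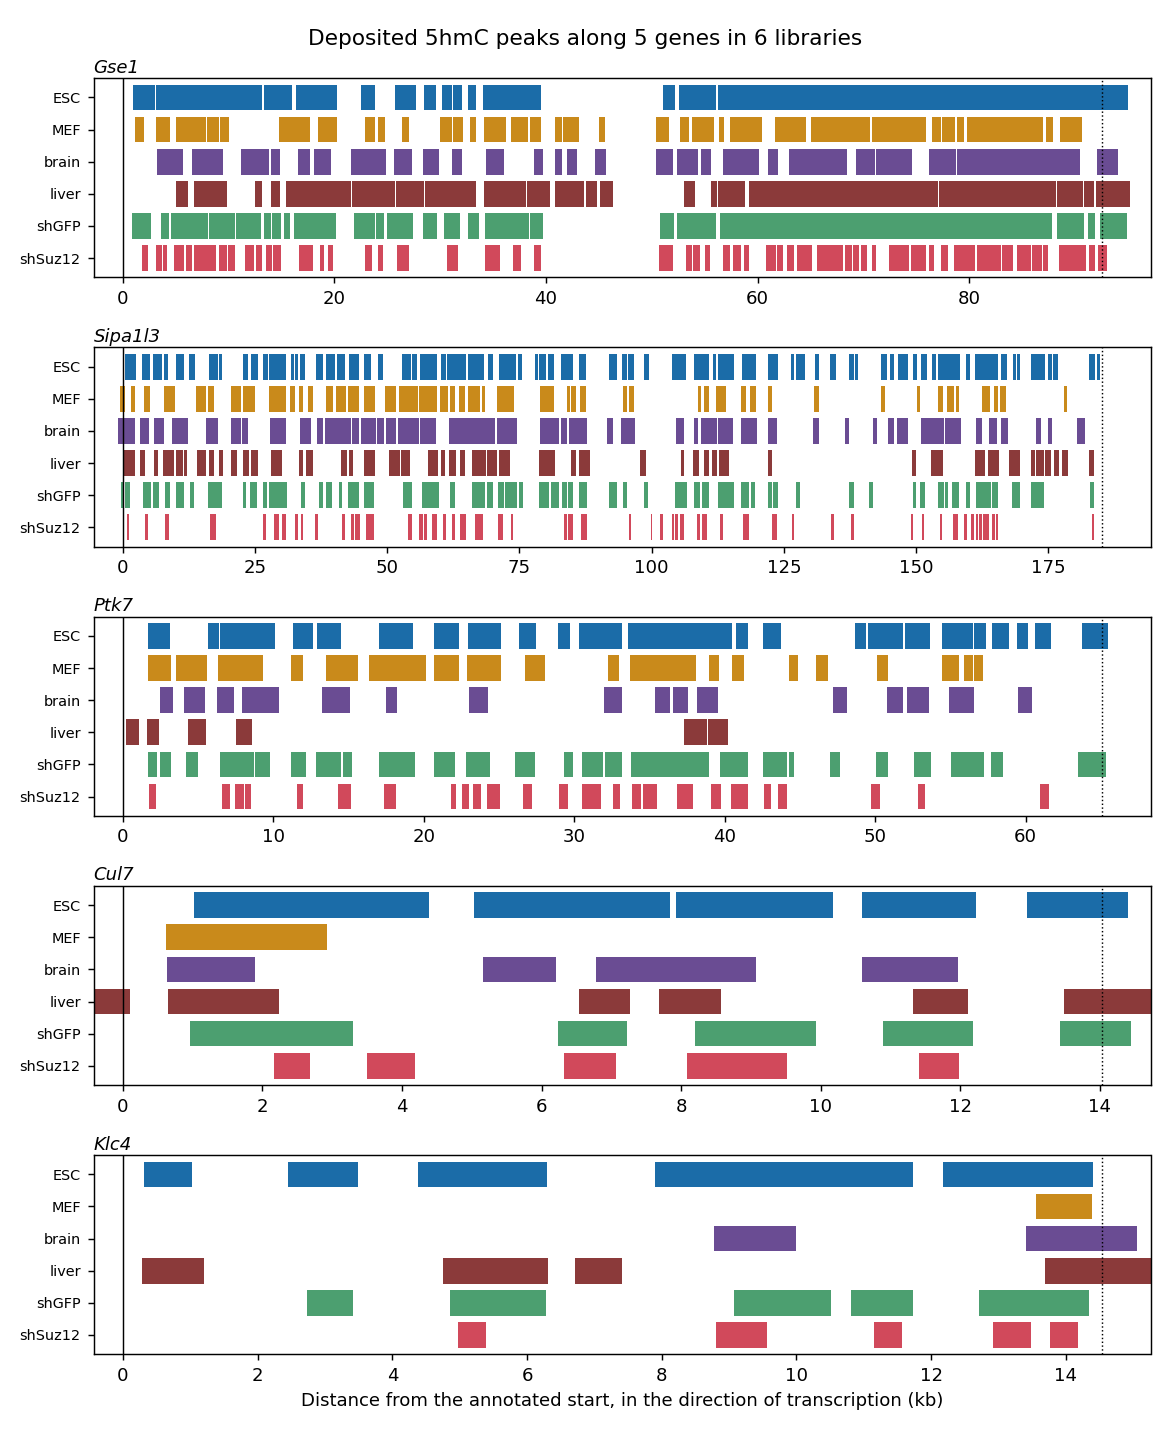
Deposited peaks (blocks) along the 5 genes, with 1 row for each library and the distance from the annotated start in the direction of transcription on the horizontal axis (kb); solid lines mark the start and dotted lines the end. In the downstream part of Gse1 the block that is unbroken in ESC is in 28 pieces in shSuz12, and in Klc4 the MEF row has 1 block near the end.

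Along Gse1 the coverage followed a similar outline in the ESC line, though not in every part. When the span is cut into 10 equal parts from start to end, parts 7 to 10 were covered between 98.1% and 100% in ESC, between 85.7% and 99.8% in shGFP and between 54.5% and 78.9% in shSuz12. In part 3 shGFP was above ESC, at 75.6% and 53.6%, with 34.2% in shSuz12. Part 5 was the barest in these 3 libraries, with 27% in ESC, 28.7% in shGFP and 14.1% in shSuz12, and also in brain, with 38.1%. Liver differed there, with 88.4% of part 5 covered but only 11.6% of part 6.

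In the other genes the lower coverage extended over their length. In Sipa1l3 every one of the 10 parts had less in shSuz12 than in shGFP, from the first part, with 48.9% and 15.3%, to the last, with 25.6% and 2.62%. In Ptk7 every part was lower too, and the difference was greatest in part 9, at 64.1% and 6.5%. Cul7 had 1 part with more, part 3, at 35.1% in shGFP and 49.1% in shSuz12, while its first, eighth and last parts were covered in shGFP and bare in shSuz12. In Klc4 the first 3 parts were bare in shSuz12, the first of them in shGFP too, and the last was at 55.7% against 86.6%.

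The starts of the genes were mostly bare in the ESC line. In Gse1 the first covered bp lay 985 bp after the start in ESC, 858 bp in shGFP and 1805 bp in shSuz12. In Ptk7 it lay 1667, 1673 and 1723 bp after the start, and in Cul7 1018, 958 and 2165 bp. Sipa1l3 was different, with 1489 of the bp within 1 kb on either side of its start under peaks in shGFP, 644 in ESC and 272 in shSuz12. Klc4 had 688 such bp in ESC and none in shGFP or shSuz12. Liver had 1784 such bp in Ptk7 and 1463 in Cul7 against none in ESC, but none in Gse1, where its first covered bp lay 4979 bp after the start.

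Exons and introns differed in how much of their shGFP coverage was also covered in shSuz12, and not in the same direction in every gene. In Gse1 86.5% of the shGFP-covered exon bp and 61.6% of the intron bp were also covered in shSuz12, in Sipa1l3 53.2% and 36.1%, and in Klc4 51.4% and 34.2%. Ptk7 went the other way, with 25.2% of the exon bp and 39.9% of the intron bp, and so did Cul7, with 39.6% and 53.3%. As net coverage, in Gse1, 81% of the exon bp were covered in shGFP and 74.6% in shSuz12, while introns had 76.5% and 48.3%. In Klc4 exons had 51.6% and 30.8% and introns 40.1% and 15.1%, and in Sipa1l3 exons had 64.9% and 38% and introns 38.8% and 18.9%. Ptk7 had 74.8% and 34.9% of its exon bp and 51.7% and 24.3% of its intron bp. The Cul7 exons had 53.2% and 30.1%, and its introns 45% and 25.7%.

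The bp covered in both knockdown libraries were richer in CpG than those covered in shGFP only. Gse1 as a whole has 23.8 CpGs per kb, more than 87.8% of protein-coding genes, and Cul7 has 27.3, more than 91.1%. Ptk7 has 18.3, Klc4 14.7 and Sipa1l3 14.1, all above the median gene with 12.1 and the genome with 8.34. In Gse1 the bp covered in both libraries had 24.3 CpGs per kb and those covered only in shGFP 17.5. The pairs were 22.6 and 16.4 in Sipa1l3, 24.2 and 18.1 in Ptk7, 30.2 and 28.2 in Cul7, and 19.6 and 18.1 in Klc4. The direction was the same in all 5 genes, with small differences in Cul7 and Klc4. The values over all genes are not given here, so whether this direction is particular to these genes was not tested. Of these 3 classes, the bp covered in neither library were the poorest in CpG in Sipa1l3, Ptk7, Cul7 and Klc4, with 10.9, 15.4, 23.5 and 11.9 CpGs per kb, but the richest in Gse1, with 31. CpG content was not used in the choice of the genes, though the bp classes come from the same 2 lists, and 1 library of each does not show how far these values vary.

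**Figure D5:**
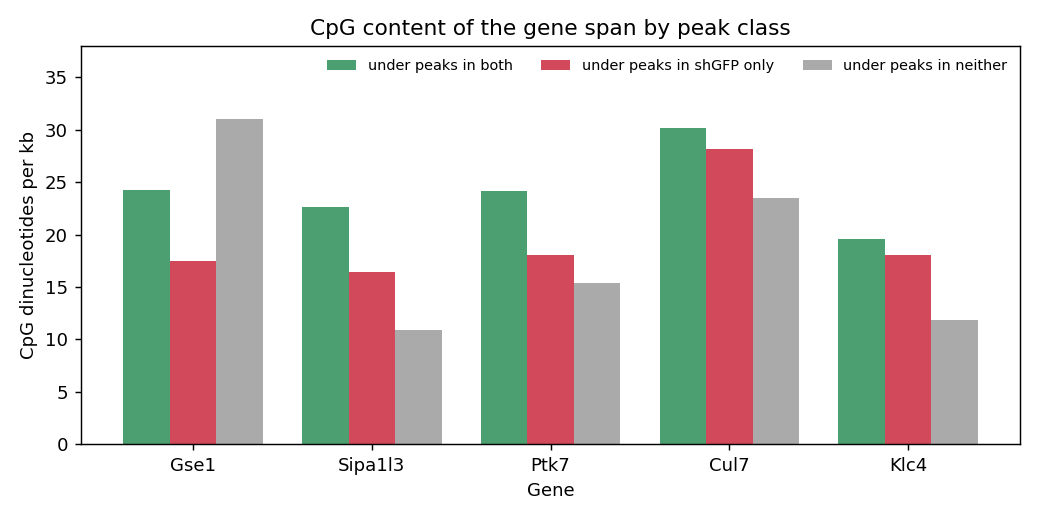
CpG dinucleotides per kb (vertical axis) in the bp of each gene under peaks in both shGFP and shSuz12, in shGFP only, and in neither. In each gene the bp covered in both are richer in CpG than those covered in shGFP only, and Gse1 alone has its highest value, 31, in the bp covered in neither.

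Most shGFP-covered bp were also covered in ESC, in both classes. In ESC, 98.1% of the bp of Gse1 covered in both knockdown libraries lay under peaks, and 88.5% of those covered in shGFP only. The values were 95.9% and 87.6% in Sipa1l3, 90% and 84.7% in Ptk7, 100% and 98.4% in Cul7, and 100% and 100% in Klc4. At least 84.7% of each class was thus also found in ESCs without a hairpin, whether or not it was covered in shSuz12. In Gse1, 60.8% of the bp covered in both, and 34.4% of those covered in shGFP only, lay under peaks in each of MEF, brain and liver, and in Sipa1l3 the shares were 38.7% and 26.4%. Ptk7 had 6.24% and 3.37%, Klc4 17.9% and 6.28%, and in Cul7 the order was turned, with 0% and 24.5%. It was turned in single libraries as well, in Cul7 for MEF, with 16.3% and 38.3%, and for liver, with 49.6% and 55.7%, and in Ptk7 for brain, with 35.4% and 47.6%.

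The other cell types gave a comparison that the choice did not use directly. ESC is not independent of the choice, since a large difference needs much shGFP coverage and both libraries are of the E14 line. Of the shGFP-covered bp of each gene, between 86.7% and 100% were also covered in ESC. The choice can thus raise the ratios below, and the shares of all genes given beside them are not limited to densely covered genes. ESC covered at least 2 times the bp of MEF in Cul7 (4.83 times) and Klc4 (11.8 times) and less in Gse1 (1.24), Ptk7 (1.37) and Sipa1l3 (1.54). That is 2 of 5 genes, where 42.9% of all 16437 genes covered in either library were past this line. Against brain only Klc4 was past it, at 4.12 times, with Ptk7 just under at 1.99, Cul7 at 1.86, Gse1 at 1.23 and Sipa1l3 at 1.04, where 31.5% of all genes were. Against liver Ptk7 (6.02), Klc4 (2.41) and Cul7 (2.39) were past it and Sipa1l3 (1.5) and Gse1 (1.01) were not, where 36.2% of all genes were. Only the liver list begins at the same score as the ESC list, and the MEF and brain lists begin lower. With scores of at least 80 throughout, 3 of 5 genes were past the line against brain, where Ptk7 was at 5.46 times, Cul7 at 4.23 and Klc4 at 4.12, but so were 73.2% of all genes. Against MEF 3 of 5 were past it too, Sipa1l3 at 2.11 times, Cul7 at 4.83 and Klc4 with no MEF peak left, where 71.1% of all genes were. The counts for MEF and brain thus depend on the minimum score, and 5 genes, of which 3 are neighbours, are too few to set them apart from the background.

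The cell types shared different parts of the ESC coverage from gene to gene. In Gse1, 74.1% of the ESC-covered bp were also covered in MEF, 72.6% in brain and 82.2% in liver. In Klc4 the shares were 8.51%, 22.9% and 30.5%, in Ptk7 54.8%, 40.9% and 11.2%, and in Cul7 17.1%, 49.5% and 36.7%. In Sipa1l3 they were 48.5%, 71.1% and 47.5%. Liver shared the most in Gse1 and Klc4, brain in Sipa1l3 and Cul7, and MEF in Ptk7.

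The windows hold other genes as well, which the choice of windows also touches, so their values are a description too. Of the 14 other protein-coding genes in their windows, 13 were covered in shGFP. Of these 13, 12 had fewer bp under peaks in shSuz12, beside 79.2% of all covered genes. Gm20388, among the 12, contains Gse1 and the other chromosome 8 genes of the windows, so it repeats their values. Klhdc3 had more, with 14.6% of its span in shGFP and 18.9% in shSuz12, and Mea1 had none in either. At most 50% of the shGFP coverage was left in 4 of the 13 covered ones, a share like the 30.8% of all covered genes. Mrpl2, a mitochondrial ribosomal protein gene between Klc4 and Cul7, went from 22.1% to 0%. Gnmt, which encodes glycine N-methyltransferase, an enzyme that uses the methyl donor S-adenosylmethionine, went from 55.3% to 6.82%. Dpf1, a subunit of neural BAF chromatin remodelling complexes next to Sipa1l3, went from 39.8% to 6.42%. Cox4i1, a subunit of cytochrome c oxidase downstream of Gse1, went from 58% to 28.6%. Gins2, which overlaps the end of Gse1, stayed nearer to its level, with 69% and 61.4%.

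Genes that work with the 5 or belong to their families were read in 5 lists, 49 genes in all. Of these, 46 were covered in shGFP, and 40 of the 46 had fewer bp in shSuz12. Of all 49, 8 had more, among them genes with no shGFP coverage, and 1 had none in either. Of all genes covered in shGFP, 79.2% had fewer bp in shSuz12, the background for these counts and for those of each list below. At most 50% of the shGFP coverage was left in 9 of the 46, or 19.6% beside 30.8% of all genes, and the median ratio was 0.625 beside 0.664 over all covered genes. The share ranged from 0% in the Sipa1 family to 40% in the CoREST genes.

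Of the Sipa1 and Rap1gap genes, which switch off Rap GTPases, 4 of 5 had fewer bp, with the largest difference in Sipa1, at 51.8% in shGFP and 26% in shSuz12. Sipa1l1 had slightly more, at 7.28% and 8.39%. Of the planar polarity genes and Wnt co-receptors related to Ptk7, 13 of 16 had fewer. The atypical cadherin Celsr2 had the largest difference, from 72.5% to 41.9%, and the Wnt signal transducer Dvl1 had the largest gain, from 9.95% to 19.2%.

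Of the 12 cullins and partners of Cul7, 9 were covered in shGFP, and 8 of these 9 had fewer bp. In the whole list 3 had more, among them Cul3 and Rbx1, which had no shGFP coverage. Most of the list was sparsely covered, with a median of 1.57% in shGFP. Obsl1, the cytoskeletal adaptor of the 3M complex, had 48.7% and 24.5%, and the RING subunit Rbx1 went from none to 8.32%. All 6 kinesin-1 genes had fewer, with Klc3 at 53.9% and 23.3% and a median ratio of 0.578. Of the CoREST genes 9 of 10 had fewer, with a median ratio of 0.551. The corepressor Rcor2 had 41.9% and 12.7%, and Zmym2 was at 2.03% and 2.23%.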

How the data were processed

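GLIB-Seq peak lists of 6 libraries were used, 1 for each of ESC, MEF, brain, liver, shGFP and shSuz12. The authors mapped reads to mm9 with Bowtie 0.12.7 after CASAVA 1.8 and retained uniquely mapped reads. Redundant reads were then collapsed, and MACS 1.4.1 was run on each library alone. The deposited score of a peak is the value from MACS. Its control and threshold for each list are not given in the sources used here. RNA-Seq libraries of shGFP and shSuz12 were not analysed here.

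Peaks were intersected with GENCODE M1 (Ensembl 65) gene spans, and CpGs were counted in the NCBIM37 genome, the same build as mm9. Mitochondrial peaks, 1 to 3 per list, were left out. For shares of peaks, 95% intervals were computed by the exact Clopper-Pearson method and cover no more than counting error. For covered bp, the intervals counted each stretch of 500 bp as 1 observation. Many peaks are wider than that, so neighbouring stretches are not independent and these intervals can be too narrow. They served to sort the alternative values into those that stayed and those that moved, and are printed only for the ratios relative to all genes. The members and lists were chosen with earlier results of these data known. Of each related list the genes with the largest fall and rise in percent covered are named. Of the genes in the same windows those that rose, had none or kept at most 50% are named, and also Gm20388 and Gins2, which overlap Gse1. The alternatives were a score of at least 80, the upper 50% of scores, equal peak numbers, 5 kb flanks, an overlap of 50% and windows shifted by 50 kb. The steps were tested on simulated peaks. Intervals came from scipy 1.17.1, figures from matplotlib 3.10.9, and all else from numpy 2.4.6 and pandas 2.3.3 in Python 3.11.15.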

Additional observations from a re-analysis of the deposited data

How the results depend on the processing

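No paired analysis was possible because there is a single library of every group, with no numbers to pair. Of 185 alternative values, 148 stayed within the counting interval of the reported value, 35 moved beyond it and 2 reversed. Part of this was fixed beforehand. The ESC and liver lists begin at 80, so neither minimum score could change their coverage. The intervals of Cul7 and Klc4 are so wide that most values stay within them. The tally is therefore no measure of how robust the values are. Coverage was lower in shSuz12 than in shGFP in 25 of 25 alternatives, by 20.1 to 40.2 percentage points. The genes were chosen on this direction and the alternatives cut the same lists again, so the count adds no evidence for it. The ratio relative to all genes was below 1 in 23 of 25, and both exceptions were Gse1, at 1.75 with scores of at least 80 and at 1.29 with the lowest shGFP score as the minimum in every list, a setting chosen after seeing the data. For scores of at least 80, the difference was 40.2 points in Gse1 and 28.1 in Sipa1l3, the relative ratio of Ptk7 was 0.406, and the unmet shGFP peaks were 33.3% in Gse1, 73.9% in Sipa1l3, 76.5% in Ptk7, 80% in Cul7 and 75% in Klc4. Coverage was then 45.1% in MEF and 49.1% in brain in Gse1, 25.9% and 35.3% in Sipa1l3, 33.3% and 11.4% in Ptk7, 18.8% in brain in Cul7 and 0% in MEF in Klc4. For the upper 50% of scores it was 53.9% in MEF in Gse1, 46.3% in ESC, 29.2% in MEF, 47.3% in brain and 26.9% in liver in Sipa1l3, 16.8% in brain in Ptk7 and 0% in MEF in Klc4. With equal peak numbers Gse1 had 54.9% in MEF, and with the lowest shGFP score as the minimum 54.9% in MEF, with 46.8% in brain in Sipa1l3 and 16.8% in brain in Ptk7. When 50% of a shGFP peak had to be overlapped, 29.6% of peaks were unmet in Gse1, 63.3% in Sipa1l3, 73.1% in Ptk7 and 80% in Klc4. With windows shifted by 50 kb the ranks were 59 for Sipa1l3, 14 for Ptk7 and 54 for Cul7 and Klc4, and 2 for Gse1 as before. The cause of these moves was not tested. Depth is unknown, so a narrower peak cannot be told apart from a shallower library.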
